A study of Rattus norvegicus with 10 samples.

Results

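The genes described are those of the synaptic vesicle release machinery in the rat trigeminal ganglion (TG), the ganglion that holds the cell bodies of the sensory neurons of the face and mouth. They were chosen by gene symbol. All synaptotagmins (*Syt*), vesicle associated membrane proteins (*Vamp*), syntaxins (*Stx*), syntaxin binding proteins (*Stxbp*) and complexins (*Cplx*) were taken, together with *Rab3a* to *Rab3d*, *Snap25* and *Sv2a* to *Sv2c*. The rule found 54 genes on 60 of the 30367 probes of the array, of which 18438 probes had a gene symbol. They comprise 15 *Syt*, 14 *Stx*, 7 *Vamp*, 6 *Stxbp*, 4 *Cplx*, 4 *Rab3* and 3 *Sv2* genes beside *Snap25*. A gene was tested when each of the 5 arrays of one or both groups gave it a signal well above background, which held for 51 of the 54, among 19271 genes and transcripts tested in all. *Cplx4* and *Syt13* were not well above background on any of the 10 arrays, and *Syt15* was so on 2. *Stx16*, *Stxbp4*, *Syt14*, *Syt16* and *Vamp9* belong to the same families but were not matched to a probe here.

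The study looked at gene expression in the TG of rats with oral ulcerative mucositis (OUM). RNA of whole TGs was measured on 1-colour arrays in 5 naive and 5 OUM model rats, all of them male Wistar rats. In the OUM model, filter paper with acetic acid was laid on the oral mucosa in front of the lower incisors under anesthesia, and the TG was taken on day 2. Naive rats, labelled as control, had the anesthesia alone. The arrays were spread over 2 slides, naive array 4 and OUM arrays 4 and 5 on slide 2 and the other 7 on slide 1. The lower incisor region is served by the mandibular division of the nerve, whereas the whole ganglion, with neurons of all divisions, glia and connective tissue, gave the RNA. Values below are log2 signals relative to the 75th percentile of each array. A log2 change is OUM minus naive, and levels of different probes are not comparable with each other. In RNA of a whole tissue, fewer cells of a type and less RNA per cell cannot be told apart.

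Neurotransmitter and neuropeptide vesicles fuse with the plasma membrane when a SNARE protein on the vesicle zips together with SNARE proteins on the plasma membrane. Synaptotagmins sense the calcium that enters during an action potential and trigger that fusion, complexins clamp and prime the assembled SNAREs, syntaxin binding proteins guide the syntaxins, and Rab3 and SV2 proteins belong to the vesicle itself. In sensory neurons the messenger RNA is made in the ganglion, and the proteins are carried to the central terminals in the brainstem and to the peripheral endings in the mucosa.

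RefSeq promoter windows (GRCr8, 300 bases around the start of a gene) were found once for 43 of the 54 genes. A GC box, spelled GGGCGG or CCGCCC on the other strand, was present in 29 of the 43 windows (67.4%), against 35.9% of all 24206 windows. The core of a cAMP response element, spelled TGACGT or ACGTCA, was present in 6 of 43 (14.0%), namely *Rab3a*, *Stx18*, *Stx5*, *Stxbp3*, *Vamp1* and *Vamp2*, against 8.32% of all windows. These letters describe the windows and are no evidence that a factor binds there. The windows of a calcium sensor, a vesicle SNARE and a vesicle GTPase of the core machinery are shown as examples of such GC boxes, *Syt1* at chr7:46244164-46244463 on the minus strand, *Vamp2* at chr10:54292539-54292838 on the plus strand and *Rab3a* at chr16:18722224-18722523 on the minus strand. Capitals mark the GC boxes, of which *Syt1* and *Vamp2* have 3 each and *Rab3a* has 2.
Syt1: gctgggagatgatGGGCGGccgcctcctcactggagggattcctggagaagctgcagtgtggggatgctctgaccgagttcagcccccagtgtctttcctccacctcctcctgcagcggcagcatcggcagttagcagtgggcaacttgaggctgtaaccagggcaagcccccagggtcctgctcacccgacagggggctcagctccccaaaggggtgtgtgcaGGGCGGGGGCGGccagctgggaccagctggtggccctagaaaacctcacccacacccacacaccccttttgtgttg
Vamp2: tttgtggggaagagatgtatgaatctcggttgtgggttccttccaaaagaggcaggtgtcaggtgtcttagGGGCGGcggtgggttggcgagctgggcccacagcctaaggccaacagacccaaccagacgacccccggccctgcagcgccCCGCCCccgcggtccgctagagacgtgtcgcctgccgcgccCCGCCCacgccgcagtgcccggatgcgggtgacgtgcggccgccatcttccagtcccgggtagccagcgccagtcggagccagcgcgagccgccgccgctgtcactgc
Rab3a: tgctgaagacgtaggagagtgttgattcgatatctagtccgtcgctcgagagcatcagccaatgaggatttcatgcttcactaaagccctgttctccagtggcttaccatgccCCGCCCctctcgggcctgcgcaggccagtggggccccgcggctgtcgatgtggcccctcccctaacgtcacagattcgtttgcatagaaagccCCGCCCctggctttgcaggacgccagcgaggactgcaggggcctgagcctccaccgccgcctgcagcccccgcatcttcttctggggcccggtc

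The release machinery genes differed little between naive and OUM rats, and none of the 51 passed the test after adjustment. By the sign of the change 18 were higher and 33 lower in OUM rats, with a median log2 change of -0.029 against -0.012 over all features tested. The lowest was *Syt1*, the calcium sensor of fast release (-0.14), and the highest was *Syt10*, a calcium sensor of exocytosis of growth factor granules (0.16), which did not clear background on 1 naive array and read 0.0092 with normexp background correction. With the filter on all 10 arrays the highest was *Vamp5*, a SNARE of muscle and other tissues outside the brain (0.14). *Vamp5* read 0.38 on naive array 1, against 0.83 to 1.06 on the other naive arrays and 0.90 to 1.07 on the OUM arrays. Its change was 0.19 on slide 1 and -0.078 on slide 2. With limma and Benjamini-Hochberg adjustment over all features 0 of 51 members had an adjusted p under 0.05, with a lowest value of 0.520, against 0.0104% of all features. At an unadjusted p under 0.05, limma called 0 members higher, against 3.8% of all features, and 1 lower, *Sv2b*, against 4.97% of all features. The methods' t-test called 0 after adjustment and, unadjusted, 0 higher and 3 lower (*Sv2b*, *Vamp7* and *Stx19*), against 3.18% and 5.03% of all features. No member had all 5 OUM arrays above all naive arrays, against 0.773% of all features, or all 5 below them, against 1.04%.

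A p that misses the threshold does not show that values did not differ, so the intervals were read as well. The 95% interval of the change lay within 1.5-fold in either direction for 51 of 51 members, against 89.8% of all features, and within 1.2-fold for 35 of 51 (68.6%), against 53.7% of all features. These intervals hold for RNA of the whole ganglion and do not bound a larger change confined to the mandibular division. The median SE was 0.071 on the log2 scale for the members and 0.077 for all features. In data simulated from these arrays the same test recovered 59.7% of genes changed 1.5-fold and 85.1% of those changed 2-fold. The simulation left 19071 of 19271 features unchanged and let each gene vary independently, whereas neuronal genes moved together on these arrays. The recovered shares depend on both settings and may be higher than these arrays would give. By scaling to the array median in place of the 75th percentile, unadjusted calls over all features turned from 732 higher and 958 lower to 1038 and 541, while quantile normalization gave 910 and 707 and the authors' own scaling 933 and 662. The members gave 0 adjusted calls under each of these.

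**Figure D1:**
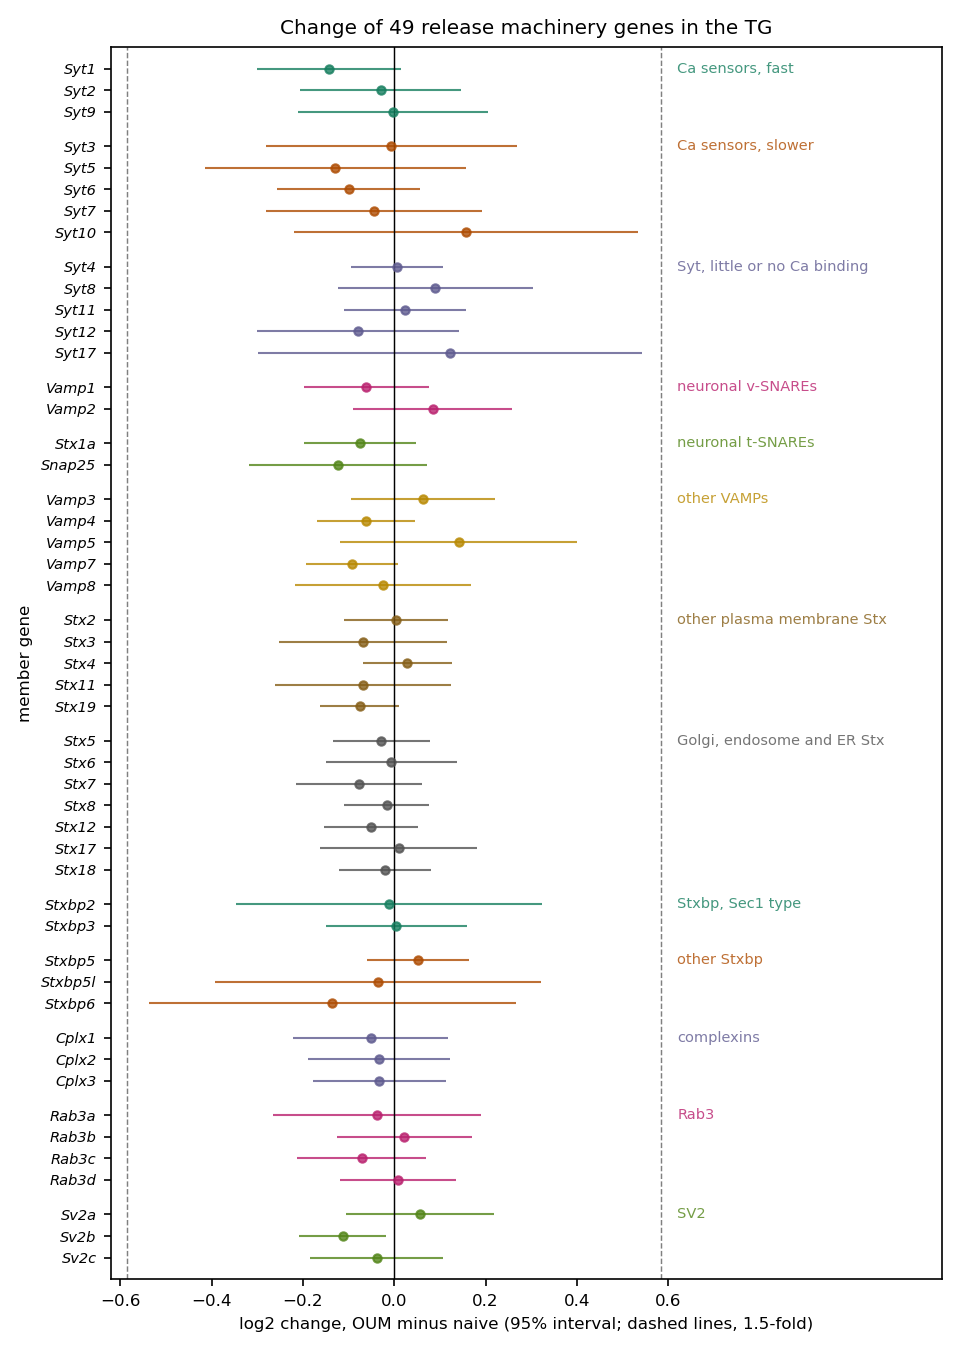
Log2 change (OUM minus naive, x axis) with its 95% interval for 49 of the 51 tested release machinery genes (y axis), grouped by role, from limma on 5 naive and 5 OUM arrays. Points lie between -0.14 and 0.16, and each interval stays inside the dashed lines at 1.5-fold. The interval of *Sv2b* alone leaves out 0.

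The fast calcium sensors are *Syt1*, *Syt2* and *Syt9*. *Syt1* read -3.92, -3.76, -3.77, -3.79 and -3.82 on naive arrays 1 to 5 and -3.76, -4.11, -3.91, -4.09 and -3.91 on OUM arrays 1 to 5. OUM arrays 2 and 4 lay below all naive arrays, whereas OUM array 1 was level with the highest naive array. The means were -3.81 ± 0.066 in naive and -3.96 ± 0.15 in OUM rats (SD, n = 5), a log2 change of -0.14 (SE 0.071, 95% interval -0.30 to 0.015). The limma p was 0.0715 and the adjusted p 0.597. *Syt2* read 0.17, 0.27, 0.27, 0.23 and 0.22 on naive arrays 1 to 5 and 0.45, 0.10, 0.34, 0.076 and 0.049 on OUM arrays 1 to 5. The naive arrays were close together, and the OUM arrays fell on both sides of them, arrays 1 and 3 above and the other three below. The log2 change of *Syt2* was -0.030 (95% interval -0.21 to 0.15), and that of *Syt9* was -0.0030 (95% interval -0.21 to 0.20).

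The slower or high affinity sensors *Syt3*, *Syt5*, *Syt6*, *Syt7* and *Syt10* had log2 changes of -0.13 to 0.16 (median -0.044), and the synaptotagmins that bind calcium weakly or not at all, *Syt4*, *Syt8*, *Syt11*, *Syt12* and *Syt17*, changes of -0.080 to 0.12 (median 0.024). *Syt10* read -6.58, -6.71, -6.92, -7.44 and -6.86 on naive arrays 1 to 5 and -6.52, -7.12, -6.90, -6.52 and -6.67 on OUM arrays 1 to 5. It was well above background on all 5 OUM and 4 of 5 naive arrays, and the groups overlapped. *Syt17* read -5.26, -5.97, -5.46, -6.27 and -5.74 on naive arrays 1 to 5 and -5.77, -5.41, -5.97, -5.42 and -5.52 on OUM arrays 1 to 5. *Syt17*, likewise well above background on 5 OUM and 4 naive arrays, was lowest on naive array 4. That array is the single naive array on its slide, and the changes of *Syt10* and *Syt17* were -0.076 and -0.11 among the arrays of slide 1 but 0.84 and 0.80 between naive array 4 and OUM arrays 4 and 5 on slide 2. For *Syt4*, a synaptotagmin of dense core vesicles, the brighter probe gave 0.0064 and the other -0.060.

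The vesicle SNAREs of neurons are *Vamp1* and *Vamp2*, and their partners on the plasma membrane include *Snap25* and *Stx1a*. *Vamp1* read 5.75, 5.81, 5.72, 5.80 and 5.69 on naive arrays 1 to 5 and 5.84, 5.51, 5.72, 5.66 and 5.73 on OUM arrays 1 to 5. Naive arrays spanned a narrow range, with OUM array 2 well under it, OUM array 4 slightly under it and OUM array 1 slightly above. The log2 change was -0.061 (95% interval -0.20 to 0.075), and -0.10 by the dimmer probe. *Vamp2* read 1.32, 1.56, 1.52, 1.40 and 1.43 on naive arrays 1 to 5 and 1.69, 1.63, 1.58, 1.44 and 1.31 on OUM arrays 1 to 5. OUM arrays 1, 2 and 3 were above all naive arrays and OUM array 5 just below them. The log2 change of *Vamp2* was 0.084 (SE 0.079, 95% interval -0.091 to 0.26, limma adjusted p = 0.777), with 0.18 among the arrays of slide 1 and -0.027 on slide 2.

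*Snap25* read 3.69, 3.93, 3.78, 3.77 and 3.72 on naive arrays 1 to 5 and 3.93, 3.52, 3.74, 3.50 and 3.56 on OUM arrays 1 to 5. OUM arrays 2, 4 and 5 lay below all naive arrays, and OUM array 1 just above them. *Snap25* had a log2 change of -0.12 (SE 0.088, 95% interval -0.32 to 0.072, limma adjusted p = 0.707), and -0.16 with its second probe. It was -0.045 on slide 1 and -0.24 on slide 2. *Stx1a* read 1.37, 1.55, 1.51, 1.42 and 1.43 on naive arrays 1 to 5 and 1.43, 1.48, 1.32, 1.27 and 1.41 on OUM arrays 1 to 5. The groups overlapped, OUM arrays 3 and 4 being the lowest. *Stx1a* had a log2 change of -0.075 (95% interval -0.20 to 0.048).

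**Figure D2:**
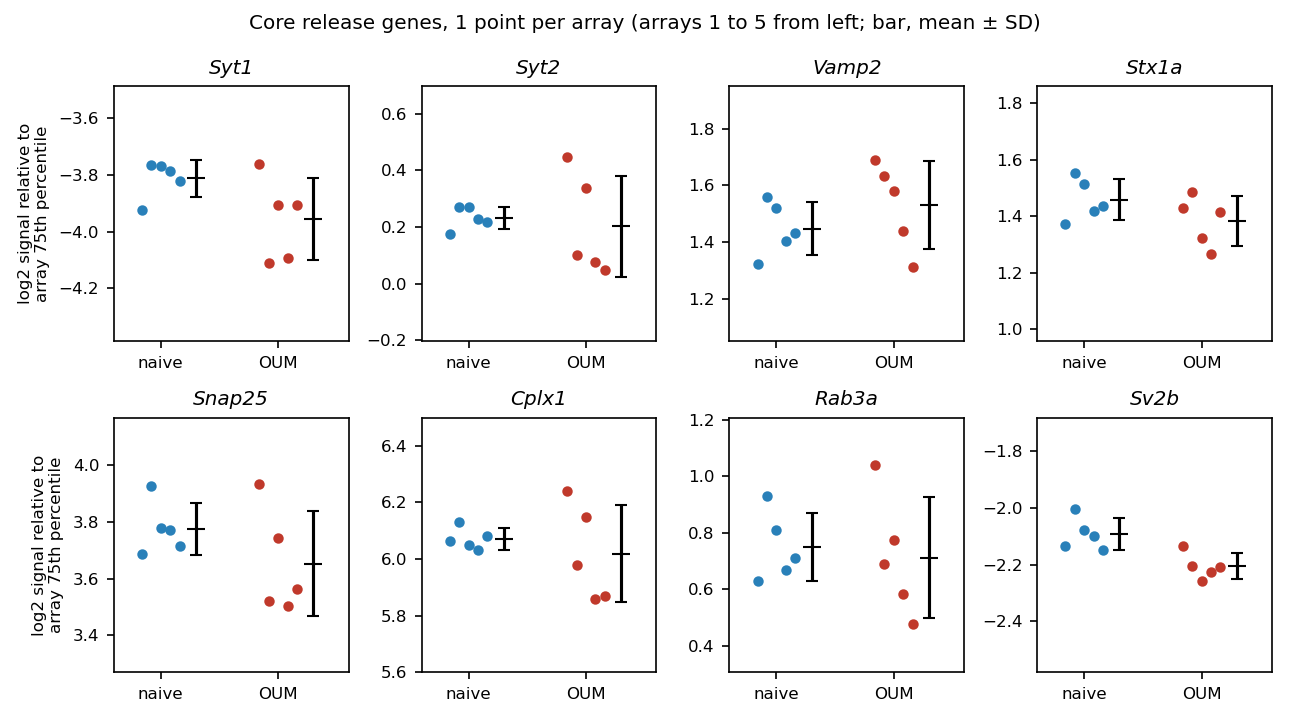
Log2 signal relative to the 75th percentile of the array (y axis) of 8 release genes in naive and OUM rats, where points are single arrays and bars show the mean ± SD of 5 arrays. Each panel spans the same height, and all 8 pairs of groups overlap, with OUM array 1 (leftmost OUM point) the highest OUM array in 7 of the 8 panels.

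Syntaxin binding proteins guide syntaxins into SNARE complexes or keep them out. *Stxbp2* and *Stxbp3*, which serve secretion in cells other than neurons, had log2 changes of -0.012 and 0.0043, and *Stxbp5*, *Stxbp5l* and *Stxbp6*, which can take the place of a vesicle SNARE in the complex, changes of -0.14 to 0.053.

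Complexins bind the assembled SNAREs. *Cplx1* read 6.06, 6.13, 6.05, 6.03 and 6.08 on naive arrays 1 to 5 and 6.24, 5.98, 6.15, 5.86 and 5.87 on OUM arrays 1 to 5. The naive arrays stayed within a narrow range, OUM arrays 1 and 3 were above it, and OUM arrays 2, 4 and 5 below. *Cplx1* had a log2 change of -0.051 (95% interval -0.22 to 0.12), and -0.031 with its dimmer probe. *Cplx2* read 1.37, 1.37, 1.58, 1.18 and 1.42 on naive arrays 1 to 5 and 1.40, 1.36, 1.35, 1.41 and 1.23 on OUM arrays 1 to 5. No OUM array left the naive range, and *Cplx2* had a log2 change of -0.034 (95% interval -0.19 to 0.12). *Cplx3*, a complexin known from retinal ribbon synapses, had a log2 change of -0.033.

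*Rab3a* is the main GTPase of synaptic vesicles. *Rab3a* read 0.63, 0.93, 0.81, 0.67 and 0.71 on naive arrays 1 to 5 and 1.04, 0.69, 0.78, 0.58 and 0.48 on OUM arrays 1 to 5. Its values were above the naive range on OUM array 1 and below it on OUM arrays 4 and 5. *Rab3a* had a log2 change of -0.038 (95% interval -0.27 to 0.19), with 0.064 on slide 1 and -0.14 on slide 2. *Rab3b*, *Rab3c* and *Rab3d* had log2 changes of -0.071 to 0.022.

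*Sv2a*, *Sv2b* and *Sv2c* code for transporter-like glycoproteins of vesicles, SV2A being the target of levetiracetam. *Sv2b* read -2.13, -2.004, -2.08, -2.10 and -2.15 on naive arrays 1 to 5 and -2.13, -2.20, -2.26, -2.23 and -2.21 on OUM arrays 1 to 5. OUM arrays 2 to 5 lay below all naive arrays, and OUM array 1 was within the naive range. The means were -2.09 ± 0.057 in naive and -2.21 ± 0.046 in OUM rats (SD, n = 5), a 0.925-fold level in OUM rats. The log2 change of -0.11 (SE 0.043, 95% interval -0.21 to -0.018) had a limma p of 0.0245 and an adjusted p of 0.520, and the two-sided exact permutation p over the 252 ways of assigning the arrays was 0.0238. The change was -0.11 on slide 1, -0.12 on slide 2, and -0.13 without OUM array 1. The unadjusted limma p was 0.0640 with median scaling, 0.0804 with quantile normalization, 0.0991 on slide 1 and 0.0737 with the replicate number as a block. It was 0.0641 without naive array 2, 0.0504 without naive array 3, 0.0592 without OUM array 3 and 0.0503 without OUM array 4, so that the unadjusted call was lost in each. *Sv2c* read -2.35, -2.25, -2.30, -2.28 and -2.35 on naive arrays 1 to 5 and -2.10, -2.40, -2.41, -2.37 and -2.43 on OUM arrays 1 to 5. OUM array 1 stood above all naive arrays and the other 4 OUM arrays below them, a change of -0.039 (95% interval -0.18 to 0.11). *Sv2a* read -1.20, -1.22, -1.13, -1.26 and -1.07 on naive arrays 1 to 5 and -1.03, -0.99, -1.02, -1.23 and -1.32 on OUM arrays 1 to 5. OUM arrays 1, 2 and 3 were above all naive arrays and array 5 below, a change of 0.056 (95% interval -0.11 to 0.22), with 0.14 on slide 1 and -0.022 on slide 2.

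The remaining SNAREs serve endosomes, the Golgi, lysosomes and the plasma membrane of cells other than neurons. *Vamp3*, *Vamp4*, *Vamp5*, *Vamp7* and *Vamp8* had log2 changes of -0.093 to 0.14. *Vamp7* read 2.02, 1.94, 2.03, 1.86 and 1.94 on naive arrays 1 to 5 and 1.88, 1.91, 1.90, 1.84 and 1.81 on OUM arrays 1 to 5. *Vamp7*, a SNARE of lysosomes and of growing neurites, had 2 OUM arrays below all naive arrays, a change of -0.093 (95% interval -0.19 to 0.0080, limma adjusted p = 0.589, two-sided exact permutation p = 0.0476). The plasma membrane syntaxins *Stx2*, *Stx3*, *Stx4*, *Stx11* and *Stx19* had log2 changes of -0.076 to 0.028, and those of the Golgi, endosomes and endoplasmic reticulum, *Stx5*, *Stx6*, *Stx7*, *Stx8*, *Stx12*, *Stx17* and *Stx18*, changes of -0.077 to 0.010. All 12 of these syntaxins had a 95% interval within 1.2-fold. *Stx2*, which takes part in secretion and cell division, read 0.0039 with its brighter probe and -0.056 with the other.

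The number of lower members at an unadjusted p depended on single arrays. Without OUM array 1 it was 4 of 51 (*Sv2b*, *Syt1*, *Snap25* and *Sv2c*), near the 6.98% of all features that were lower in that setting. It was 2 without naive array 1 (*Sv2b* and *Syt1*), without naive array 4 (*Sv2b* and *Vamp7*) and without OUM array 4 (*Stx19* and *Syt6*), where 3.73%, 7.15% and 3.88% of all features were lower. It was 0 without naive array 2, without naive array 3 or without OUM array 3, where 3.30%, 3.87% and 4.00% of all features were lower. Within slide 1, 2 members were higher, *Vamp2* and *Sv2a*, and 3 lower, *Stx11*, *Stx19* and *Syt6*, against 4.38% and 9.56% of all features. None of these had an adjusted p under 0.05 in limma, the lowest being 0.311.

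For most members the SD was larger among the OUM arrays than among the naive arrays. The genes share the same arrays, so that counts of genes are not independent, and the difference in spread was not tested. Among the 14 core neuronal members, which include *Syt1*, *Syt2*, *Vamp1*, *Vamp2*, *Stx1a*, *Snap25*, *Cplx1*, *Cplx2*, *Rab3a* and *Sv2a* to *Sv2c*, the SD was larger in OUM than in naive rats for 12, with median SDs of 0.15 and 0.073. It was larger for 36 of all 51 members (70.6%), against 63.5% of all features. The same held for 15 of 15 neuron markers, with median SDs of 0.18 in OUM and 0.084 in naive rats. For the 17 SNAREs of other cells and membranes it was larger for 12, with median SDs of 0.072 in both groups. OUM array 1 was the highest of the 10 arrays for 9 of the 14 core members, OUM array 5 the lowest for 7 and OUM array 4 the lowest for 3. OUM arrays 4 and 5 were on slide 2 with a single naive array, so that the spread among OUM rats holds slide and rat together.

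**Figure D3:**
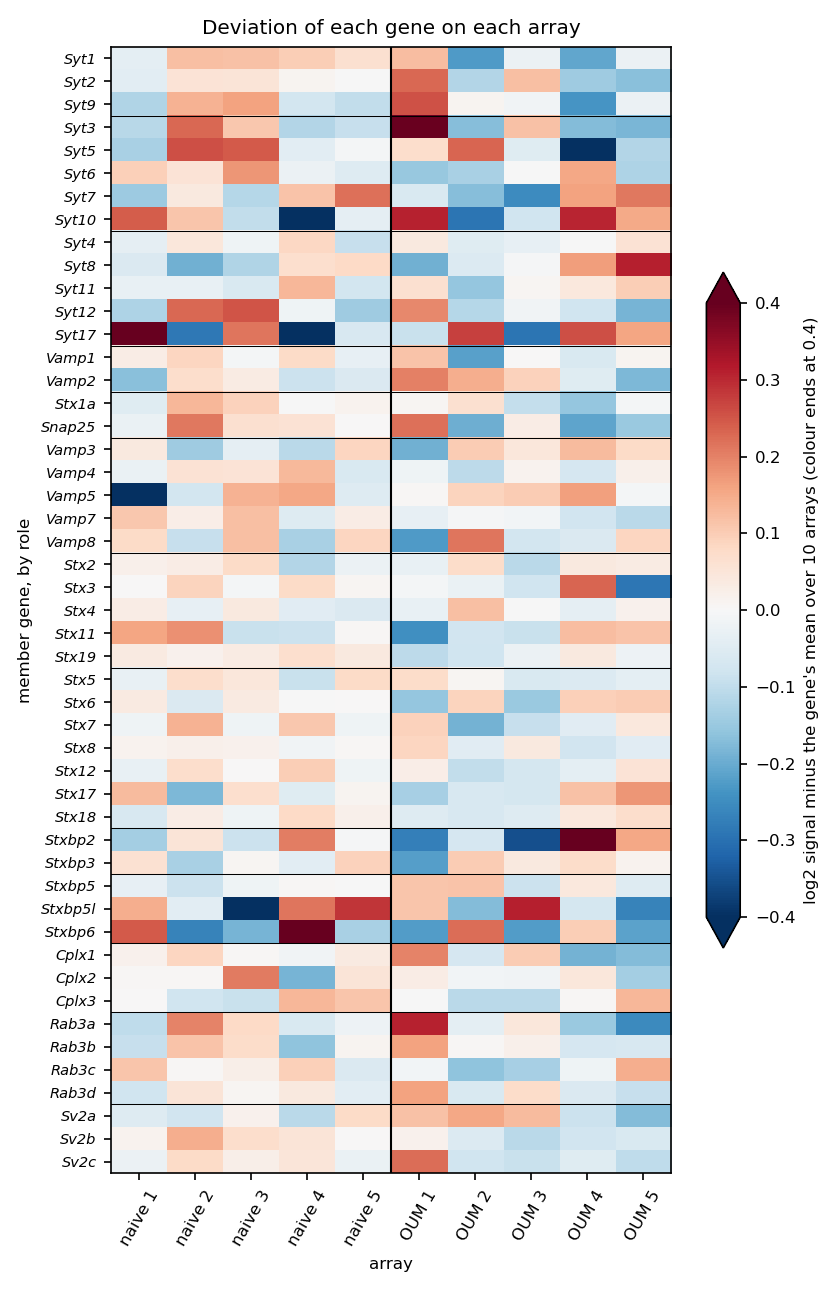
Log2 signal of 49 release machinery genes (rows, ordered by role) on the 10 arrays (columns), shown as the deviation from the gene's mean over the arrays, with the colour scale ending at 0.4. Neuronal genes such as *Syt2*, *Snap25*, *Cplx1* and *Rab3a* are red on OUM array 1 and blue on OUM arrays 4 and 5, whereas *Vamp3*, *Stxbp3* and *Stx6* are blue on OUM array 1.

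Neuron markers deviated in the same direction as the core members on 8 of 10 arrays. The mean deviation of the 14 core members from their 10-array means was -0.058, 0.11, 0.068, -0.029 and -0.0075 on naive arrays 1 to 5 and 0.18, -0.077, 0.050, -0.089 and -0.15 on OUM arrays 1 to 5. That of 15 neuron markers, none of them a member, was 0.013, 0.077, 0.057, -0.050 and 0.012 on the naive arrays and 0.17, -0.065, 0.039, -0.11 and -0.14 on the OUM arrays. The sets differed in sign on naive arrays 1 and 5. Both were highest on OUM array 1 and lowest on OUM array 5. The 17 SNAREs of other cells and membranes stayed between -0.056 and 0.034, and were lowest on OUM array 1. Markers of fibroblasts and meninges were at -0.38 on OUM array 1 and at 0.22, 0.16 and 0.20 on OUM arrays 2, 4 and 5, where neuron markers were low. On the same arrays Schwann cell markers were at -0.12, 0.15, 0.066 and 0.094, and those of vessels and blood at -0.23, 0.18, 0.041 and 0.17. Macrophage and mast cell markers had the same signs. Satellite glia and central tissue were negative on OUM array 5, muscle was negative on OUM array 2, and pituitary markers were positive on OUM array 1. Naive array 4 also had low neuron markers but read -0.086 for fibroblasts and meninges. The part of neuron content in the values of the release genes was not tested.

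**Figure D4:**
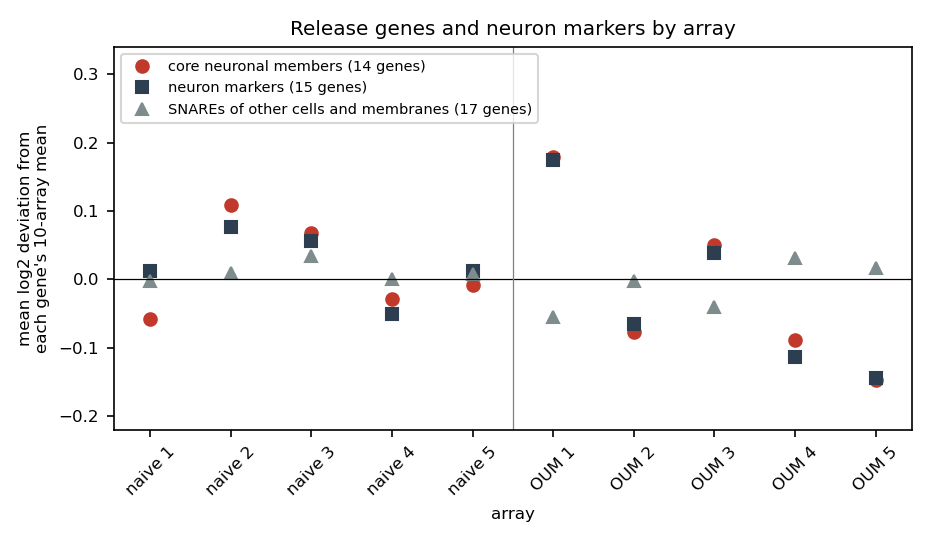
Mean log2 deviation from each gene's 10-array mean (y axis) on each array (x axis) for 14 core release genes (circles), 15 neuron markers (squares) and 17 SNAREs of other cells and membranes (triangles). Circles and squares lie close together on most arrays, from 0.18 and 0.17 on OUM array 1 down to -0.15 and -0.14 on OUM array 5, whereas triangles stay near 0.

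The labelled tissue was checked against its markers. All 15 neuron markers with a probe, of 17 listed, were tested, and their summed level was 607 to 660 in naive and 561 to 690 in OUM rats, in units of the 75th percentile of the array. Of the neuron markers 0 were higher and 2 lower (unadjusted p under 0.05), against 3.8% and 4.97% of all features. In 1 of them all 5 OUM arrays lay below all naive arrays, against 1.04% of all features. In 1 marker of vessels and blood all 5 OUM arrays lay above, against 0.773%. Counts of higher and lower markers were 1 and 1 of 8 for satellite glia, 2 and 0 of 10 for Schwann cells, 2 and 0 of 9 for central nervous tissue, 1 and 0 of 10 for macrophages, 1 and 0 of 6 for mast cells, 2 and 0 of 8 for vessels and blood, and 0 of 9 for fibroblasts and meninges and for muscle alike. Pituitary markers, which should be low in a TG, stood highest on naive array 1, OUM array 1 and OUM array 2 (mean deviations of 1.73, 1.87 and 2.11), with a summed level of 4.28 to 25.3 in naive and 6.16 to 30.6 in OUM rats, and 0 of 7 passed the unadjusted test. By the sign of the change all 7 were higher in OUM rats, with a median log2 change of 1.14 and a median SE of 1.14. Without naive array 1 and OUM arrays 1 and 2 the unadjusted test called 5 of 51 members lower, against 3.72% of all features. They were *Syt1*, *Snap25*, *Stx1a*, *Sv2b* and *Syt5*, with changes of -0.18, -0.19, -0.14, -0.15 and -0.32 and a lowest limma adjusted p of 0.566. This removed OUM array 1, where neuron markers were highest (0.17), and kept OUM arrays 4 and 5, where they were lowest (-0.11 and -0.14). OUM arrays 4 and 5 were also on slide 2, with naive array 4 alone of the naive arrays. The parts of slide and neuron content in these calls were not tested. Across the 10 arrays 70.8% to 77.2% of probes were well above background, and correlations between arrays were 0.989 to 0.998.

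Other genes of the release pathway were taken from 4 lists, SNARE partners, priming and active zone, further vesicle proteins, and vesicle endocytosis, of which 110 of 129 genes were tested. Their median log2 change was -0.036, an unadjusted p under 0.05 called 2 higher and 10 lower, against 3.8% and 4.97% of all features, and 0 had an adjusted p under 0.05 in limma or in the methods' t-test. *Pclo*, the active zone scaffold Piccolo, read -1.34, -1.32, -1.33, -1.23 and -1.39 in naive and -1.38, -1.62, -1.50, -1.56 and -1.49 in OUM rats. OUM arrays 2 to 5 were below all naive arrays, a change of -0.19 (SE 0.053, limma adjusted p = 0.454). *Rab27b*, a GTPase that docks secretory vesicles, read -0.50, -0.49, -0.49, -0.70 and -0.41 in naive and -0.67, -0.99, -0.64, -0.84 and -0.80 in OUM rats, a change of -0.27 (SE 0.077, limma adjusted p = 0.462). *Cltc*, the clathrin heavy chain, read 4.12, 4.07, 4.04, 4.20 and 4.06 in naive and 4.03, 3.83, 3.96, 3.94 and 4.01 in OUM rats. All 5 OUM arrays of *Cltc* were below all naive arrays, a change of -0.14 (SE 0.051, limma adjusted p = 0.502). This held for 1 of the 110 genes, against 1.04% of all features. Any such separation gives a two-sided exact permutation p of 0.00794, the smallest that 5 against 5 arrays can give.

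Among the SNARE partners, 3 of 22 were lower at an unadjusted p, the SNARE disassembly factor *Napb* (-0.16), the lysosomal tethering protein *Vps33a* (-0.21) and *Scfd1*, the syntaxin binding protein of the Golgi (-0.11). Of 31 priming and active zone genes 2 were higher and 5 lower, the lower ones including *Pclo* and *Rab27b*. The 2 higher genes were *Sytl4* (0.55) and *Rph3al* (0.34), Rab effectors of secretory granules, and *Sytl4* was well above background on only 2 of 5 naive arrays and read 0.15 with normexp. Of 31 vesicle proteins 1 was lower, the proton pump subunit *Atp6v1a* (-0.15), and of 26 endocytosis genes 1, *Cltc*. Counts within a list are small and are to be read against the same shares of all features. The 10 lower calls became 19 without OUM array 1 and 16 without naive array 4, where 6.98% and 7.15% of all features were lower. They became 6 without naive array 1 or without OUM array 4, where the lower share was 3.73% and 3.88%. They became 5 without naive array 2 and 4 without OUM array 2, where it was 3.30% and 3.40%. The 2 higher calls became 5 without OUM array 1, where 5.57% of all features were higher. They became 1 without OUM array 2, OUM array 3 or naive array 3, against 3.12%, 3.54% and 2.97% of all features. They became 0 without OUM array 4, OUM array 5 or naive array 2, against 2.70%, 4.14% and 2.71%.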

How the data were processed

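The authors labelled total RNA of each TG with Cy3, hybridized it to Agilent 1-colour arrays and quantified the scans with Agilent Feature Extraction 10.7.1.1, per the labels. The deposited files give the processed signal, an intensity after background subtraction, for each spot. The value table deposited by the authors holds a ratio, the same signal over a constant per array for 92.7% to 93.4% of probes within 1 percent, on a linear scale (column medians 0.115 to 0.123), and served as an alternative.

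Outlier and control spots were dropped and the spots of each probe averaged. From the log2 of this deposited intensity the log2 of the array's 75th percentile (2617 to 2939 units) was subtracted. Probes were named through accessions in a RefSeq table of GRCr8. The brightest probe stood for its gene. Groups were compared with limma 3.58.1 in R 4.3.3 (lmFit, eBayes, two-sided, Benjamini-Hochberg over 19271 features, threshold 0.05), which was tested on simulated data. Single genes also had an exact permutation test. The number of arrays limits the precision.

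The members and gene lists were chosen with earlier results of these data known. Named were 14 core members, members past an unadjusted p of 0.05, with the most extreme changes, with probes of opposite sign or well above background throughout in 1 group only, and up to 3 genes per pathway list. *Vamp3*, *Vamp5*, *Vamp7*, *Stxbp3*, *Sytl4* and *Rph3al* were named after their values were seen, as were members named for a call under an alternative. The 10 marker lists covered neurons, satellite glia, Schwann cells, central tissue, pituitary, muscle, fibroblasts and meninges, macrophages, mast cells, and vessels and blood. Alternatives changed the background correction, scaling, filter, probe rule, slide and replicate terms, and left out arrays. Replicate numbers do not pair the rats. Values of some single genes are not reported here, although counts and medians include them.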

Additional observations from a re-analysis of the deposited data

Results flagged for a closer look

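In 3 of 56 groups of 5 arrays looked at, 1 array lay far from the other 4 of its group. Independent groups would give about 2.8 by chance, but these genes share the same arrays. *Vamp3* and *Stxbp3* were also named after their values were seen, so the count is no test. All 3 were OUM array 1. *Sv2c* read -2.10 there against -2.43 to -2.37 on the other OUM arrays. *Vamp3*, a SNARE of recycling endosomes, read 2.82 against 3.06 to 3.14, and *Stxbp3*, a syntaxin binding protein of non-neuronal cells, read 0.55 against 0.78 to 0.87.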

How the results depend on the processing

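No member passed adjustment under any of the alternatives run, and the median change of the members stayed negative in all of them. It was less negative than that of all features with slide as a block (-0.015 against -0.021) and on slide 1 (-0.034 against -0.041). The same held without OUM array 4 (-0.019 against -0.020) and without OUM array 5 (-0.014 against -0.026). In the other alternatives the median of the members lay below that of all features. Members lower at an unadjusted p under 0.05 (1 as reported) numbered 2 with normexp background, 2 with slide as a block, 3 on slide 1, 2 on slide 2, 3 by the methods' t-test, 5 without the 3 pituitary-rich arrays, 0 with quantile normalization or median scaling, and 0 to 4 without 1 array. Over all features the lower share was 5.32% with normexp, 7.04% with slide as a block, 9.56% on slide 1, 3.48% on slide 2, 5.03% by the methods' t-test, 3.72% without the pituitary-rich arrays, 3.67% with quantile normalization, 2.81% with median scaling and 3.30% to 7.15% without 1 array. Slide 2 sets 1 naive array against 2 OUM arrays and assumes that the lone array varies like the OUM arrays, and it gave 126 adjusted calls over all features, so its calls are no evidence about a gene. Higher members (0 as reported) numbered 2 on slide 1 and 2 on slide 2, against 4.38% and 9.08% of all features. Members whose groups did not overlap (0 as reported) numbered 4 on slide 1, 5 without the pituitary-rich arrays and 0 to 2 without 1 array, against 15.0%, 8.76% and 2.32% to 5.03% of all features. Other release genes lower (10 as reported) numbered 5 with median scaling and 4 to 19 without 1 array. The lower shares of all features were 2.81% and 3.30% to 7.15%. Those higher (2 as reported) numbered 1 with the filter on all 10 arrays, with the mean of probes or with slide as a block. The higher shares of all features were 3.65%, 3.76% and 4.63%. Higher release genes numbered 5 on slide 1, 0 by the methods' t-test, 4 without the pituitary-rich arrays and 0 to 5 without 1 array. The shares there were 4.38%, 3.18%, 4.59% and 2.70% to 5.57%. With the replicate number as a block, 0 members were called at an unadjusted p. Of the other release genes 6 were lower and 0 higher in that setting, against 3.74% and 3.44% of all features. The deviations of same-numbered arrays correlated at -0.093 to 0.14, except for naive and OUM arrays 4, at 0.33. That pair alone lay together on slide 2, and the part of the slide was not tested.

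Of 669 values of 28 named genes under the alternatives, 43 changed sign, none of them called. They were *Stx2* -0.033 and *Syt4* -0.0056 with normexp, *Stx2* -0.026 and *Syt4* -0.027 with the mean of probes, *Rab3a* 0.0072, *Syt4* -0.0075 and *Stxbp3* -0.00021 with slide as a block, *Syt2* 0.062, *Cplx1* 0.042, *Rab3a* 0.064, *Sv2c* 0.0059, *Syt10* -0.076, *Stx2* -0.048, *Syt17* -0.11, *Vamp3* -0.0032 and *Stxbp3* -0.034 on slide 1, *Vamp2* -0.027, *Cplx2* 0.14, *Sv2a* -0.022 and *Syt4* -0.055 on slide 2, and *Vamp2* -0.034, *Sv2a* -0.022 and *Stx2* -0.0036 without the pituitary-rich arrays. Without 1 array the ranges were -0.085 to 0.014 for *Cplx2*, -0.12 to 0.022 for *Rab3a*, -0.025 to 0.031 for *Stx2*, -0.027 to 0.060 for *Stxbp3*, -0.0093 to 0.24 for *Syt17*, -0.091 to 0.0083 for *Syt2* and -0.016 to 0.028 for *Syt4*. Genes outside the 28 were not counted, and some of them changed sign as well. Examples are *Syt9* 0.064 on slide 1, and *Vamp5* -0.078, *Stx11* 0.21 and *Syt6* 0.038 on slide 2. The cause of the sign changes was not tested. *Syt10*, *Syt17* and *Sytl4* were well above background on only some naive arrays, so that part of their naive values lies near background.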
